A study of Mus musculus with 6 samples.

Results

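Read levels were described at 8 genes of the pluripotency network of mouse embryonic stem (ES) cells: Pou5f1, Nanog, Sox2, Klf4, Esrrb, Zfp42, Tet1 and Sall4. They were chosen by name. Each was taken as its gene interval in build mm9 with 10 kb added on both sides, here called a locus. The 8 loci covered 446 kb and 438 of the 2557094 tiles of 1 kb kept in the genome. The 6 libraries came from ES cells of the C57Bl/6 strain grown in leukaemia inhibitory factor (LIF) without feeders. In 1 library chromatin immunoprecipitation (ChIP) of formaldehyde-fixed cells used a home-made rabbit antibody against the histone variant H2A.B. Its control was 1 ChIP library made with rabbit IgG, an antibody with no chosen target. In 3 libraries methylated DNA immunoprecipitation (MeDIP) pulled down sheared, denatured DNA with a mouse antibody against 5-methylcytosine (5mC, clone 33D3), and 1 MeDIP library made with mouse IgG was their control. No treatment, genotype or time separated the groups. Nothing in the labels ties the 3 5mC libraries to separate cultures, so the spread between them may be technical. The 2 IgG libraries are IgG by title and antibody entry, which were followed, although their description names the anti-H2A.B serum. The libraries hold DNA and no RNA, so whether the 8 genes were active in these cells was not measured.

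Pou5f1 (also called Oct4), Sox2 and Nanog are the transcription factors at the core of the network, and they bind their own and each other's regulatory DNA. Klf4, Esrrb and Sall4 are further transcription factors of the network, Zfp42 (Rex1) is a zinc finger gene used as a marker of undifferentiated cells, and Tet1 is an enzyme that oxidises 5mC, a step towards its removal. H2A.B, a histone H2A variant with a shortened C-terminus, makes nucleosomes less stable and has been linked to transcribed chromatin. 5mC in mammals lies mostly at CG pairs. Promoters rich in CG are as a rule free of it, and several promoters of this network gain it when ES cells differentiate.

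Since 5mC lies mostly at CG pairs, the promoters of the 4 members with the most and the fewest CG are shown. Whether the number of CG bears on the 5mC reads was not tested. RefSeq's promoter table of build GRCm38.p6 held an entry for 7 of the 8 members, all but Sall4. Each line gives the 250 bases before the RefSeq start, 5′ to 3′ on the gene's strand, with each CG in capitals. The coordinates are those of GRCm38.p6 and not of mm9, the build of the reads.
Klf4, chr4:55532476-55532725, minus strand: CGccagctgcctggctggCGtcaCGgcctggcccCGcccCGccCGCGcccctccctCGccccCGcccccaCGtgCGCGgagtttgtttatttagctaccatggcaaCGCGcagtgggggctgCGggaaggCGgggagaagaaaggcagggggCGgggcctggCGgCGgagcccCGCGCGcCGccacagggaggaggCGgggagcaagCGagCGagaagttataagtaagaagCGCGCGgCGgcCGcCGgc
Sox2, chr3:34649745-34649994, plus strand: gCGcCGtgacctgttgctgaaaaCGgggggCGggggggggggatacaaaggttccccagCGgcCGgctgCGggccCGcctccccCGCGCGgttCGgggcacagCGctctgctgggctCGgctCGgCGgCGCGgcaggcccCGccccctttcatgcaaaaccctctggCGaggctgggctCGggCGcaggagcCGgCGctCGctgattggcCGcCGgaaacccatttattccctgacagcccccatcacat
Esrrb, chr12:86360867-86361116, plus strand: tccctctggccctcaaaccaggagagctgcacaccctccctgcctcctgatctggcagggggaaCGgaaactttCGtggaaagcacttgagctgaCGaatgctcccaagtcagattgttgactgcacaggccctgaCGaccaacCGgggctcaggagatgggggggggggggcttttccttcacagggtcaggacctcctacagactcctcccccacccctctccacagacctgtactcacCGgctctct
Nanog, chr6:122707239-122707488, plus strand: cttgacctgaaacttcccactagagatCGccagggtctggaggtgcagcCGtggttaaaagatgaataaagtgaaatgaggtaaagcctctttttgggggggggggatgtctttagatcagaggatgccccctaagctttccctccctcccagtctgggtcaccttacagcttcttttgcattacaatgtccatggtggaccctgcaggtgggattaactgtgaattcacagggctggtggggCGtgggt

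Over the whole 300 bp of the table, from 250 before to 50 after the start, Klf4 held 40 CG and Sox2 27. Nanog held 4 and Esrrb 7, the latter equal to the median of 7 over all 32851 promoters of the table. The others lay between, with 17 in Tet1 and 11 in each of Pou5f1 and Zfp42. CG was searched as these letters, which read the same on both strands. The share of all promoters with fewer CG was 96.1% for Klf4, 84.5% for Sox2, 68.6% for Tet1, 58.6% for Pou5f1 and for Zfp42, 47.9% for Esrrb and 31.4% for Nanog. The interval of Tet1 is 7455 bp shorter in mm9 than in the RefSeq table, so its RefSeq start may not be the start used for the reads. The lengths of the others differ by at most 95 bp between the sources.

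In mm9 coordinates, with the added 10 kb on each side, the loci of the core factors were chromosome 17, 35632977 to 35657722 for Pou5f1, chromosome 6, 122647507 to 122674651 for Nanog and chromosome 3, 34538927 to 34561382 for Sox2. Klf4 was taken at chromosome 4, 55530017 to 55555337, Esrrb at chromosome 12, 87692069 to 87872521, and Zfp42 at chromosome 8, 44370421 to 44402373. Tet1 was taken at chromosome 10, 62257318 to 62352762, and Sall4 at chromosome 2, 168563832 to 168602796. Exons and introns were not told apart, because no mm9 annotation was used here.

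Reads with the same 5′ end and strand were counted as 1 distinct read, and a level is given as distinct reads per 1000000 distinct reads of the library (CPM) and per kb. H2A.B ChIP held 8053559 distinct reads and IgG ChIP 539303. The 5mC libraries held 1396972 (replicate 1), 1893285 (replicate 2) and 803580 (replicate 3), and IgG MeDIP held 124157. The median 25 kb window held 69 reads of H2A.B, 5 of IgG ChIP, 7 to 14 of the 5mC libraries and 1 of IgG MeDIP. A count of 0 allows up to 5.56 CPM in IgG ChIP and 24.2 CPM in IgG MeDIP, from counting error alone. H2A.B ChIP and 5mC replicate 1 were read on the same lane of 1 flow cell at 42 bp. The other 4 libraries were read on another flow cell at 50 bp, with 5mC replicate 2 and IgG MeDIP on lane 1 and 5mC replicate 3 and IgG ChIP on lane 2. For H2A.B against IgG ChIP the antibody, the flow cell and the read length changed together and cannot be told apart.

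H2A.B reads stood above the genome's median at all 8 loci, and so did IgG ChIP reads at 6 of them. The H2A.B level was 0.707 CPM per kb at Esrrb, which codes for an orphan nuclear receptor. It was 0.672 at Pou5f1, 0.644 at Sall4, 0.627 at Nanog and 0.606 at Tet1, against a median of 0.343 over the 101675 windows of 25 kb kept. Below these 5 stood Zfp42 at 0.459, Klf4 at 0.427 and Sox2 at 0.387. In this order the ratio of neighbouring loci had an exact interval that excluded 1 only between Tet1 and Zfp42 (1.32, 95% interval 1.08 to 1.63, counting error only). Neighbours among the 5 higher loci were not told apart, nor were neighbours among the 3 lower ones. Loci further apart in this order, such as Esrrb and Tet1, were not compared and may differ. Esrrb exceeded 94.1% of the 25 kb windows, Pou5f1 92.3% and Sox2 58.6%, although the loci run from 22.5 kb (Sox2) to 180 kb (Esrrb) and are not of the windows' length.

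The IgG ChIP level followed another order, with Pou5f1 first at 1.35 CPM per kb, above 99.9% of the 25 kb windows. Nanog followed at 0.751, Esrrb at 0.617, Tet1 at 0.563 and Klf4 at 0.513. Sall4 (0.381) stood close to the genome's median of 0.371, and Sox2 (0.330) and Zfp42 (0.290) lay below it. These levels rest on 4 reads at Sox2, 5 at Zfp42 and at most 60, at Esrrb.

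**Figure D1:**
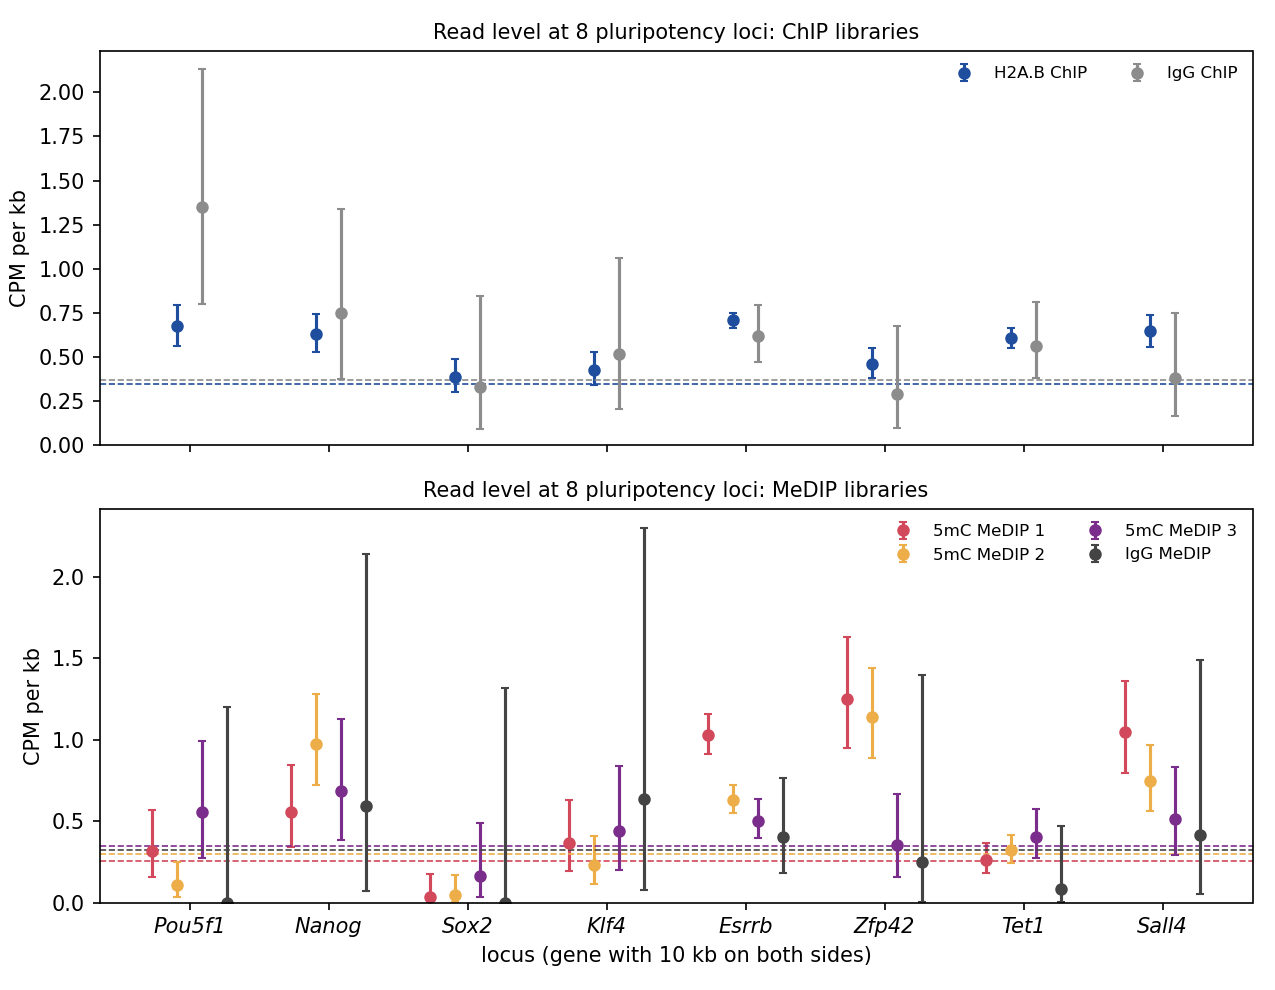
Level of distinct reads (CPM per kb) at each of the 8 loci, ChIP libraries above and MeDIP libraries below, with points for single libraries, bars for exact 95% Poisson intervals of the counts and dashed lines for each library's median over 25 kb windows. All 8 H2A.B points lie above their dashed line, Pou5f1 has the highest IgG ChIP point at 1.35, and Sox2 has the lowest 5mC points, 0.0319 to 0.166.

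H2A.B was then set against IgG ChIP, to ask whether the antibody recovered more of these loci than the control did. No locus was called higher, 1 (Pou5f1) was called lower, and 7 were neither. A call needed a ratio of CPM of at least 1.5 with an exact lower bound above 1, or the mirror of this for lower. With the same rule 2.99% of the 25 kb windows of the genome were called higher and 4.09% lower. With 1 library in each group these are calls of size on 2 libraries and not tests of the antibodies.

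Among the core factors, Pou5f1 had 134 reads of H2A.B and 18 of IgG ChIP, a ratio of 0.499 (95% interval 0.304 to 0.867). The call at Pou5f1 rests on its high IgG level, since its H2A.B level was itself among the highest of the 8. It ended when all reads were counted as deposited (0.679) and when 25 kb was added in place of 10 kb (0.681). Nanog, with 137 and 11 reads, had a ratio of 0.834 (0.452 to 1.71). Sox2, with 70 and 4 reads, had 1.17 (0.438 to 4.42). Both intervals hold 1 and reach past 1.5, so an enrichment of that size was neither shown nor excluded there at this depth.

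Of the other factors, Sall4, a zinc finger protein, had the highest ratio, 1.69 (0.842 to 3.97), from 202 and 8 reads. Its interval held 1. Scaled to the surrounding 5 Mb it was 1.26, below Zfp42 (2.02) and Nanog (1.41), and scaled to the own chromosome 1.65, below Zfp42 (1.77). With all reads as deposited the ratio was 2.23 and was called higher, but the share of all windows called in that setting was not computed. Zfp42 came next at 1.58 (0.658 to 4.96), from 118 and 5 reads. The ratio was 0.832 (0.387 to 2.13) at Klf4, from 87 and 7 reads. The long loci gave the narrowest intervals. Esrrb, with 1027 and 60 reads, had 1.15 (0.883 to 1.51), and Tet1, with 466 and 29 reads, 1.08 (0.739 to 1.62). Over the 8 loci together 2241 reads of H2A.B and 142 of IgG ChIP gave 1.06 (0.892 to 1.26). The median of the 8 ratios was 1.11, beside 1.04 over the 25 kb windows and 1.01 over 100 kb windows.

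**Figure D2:**
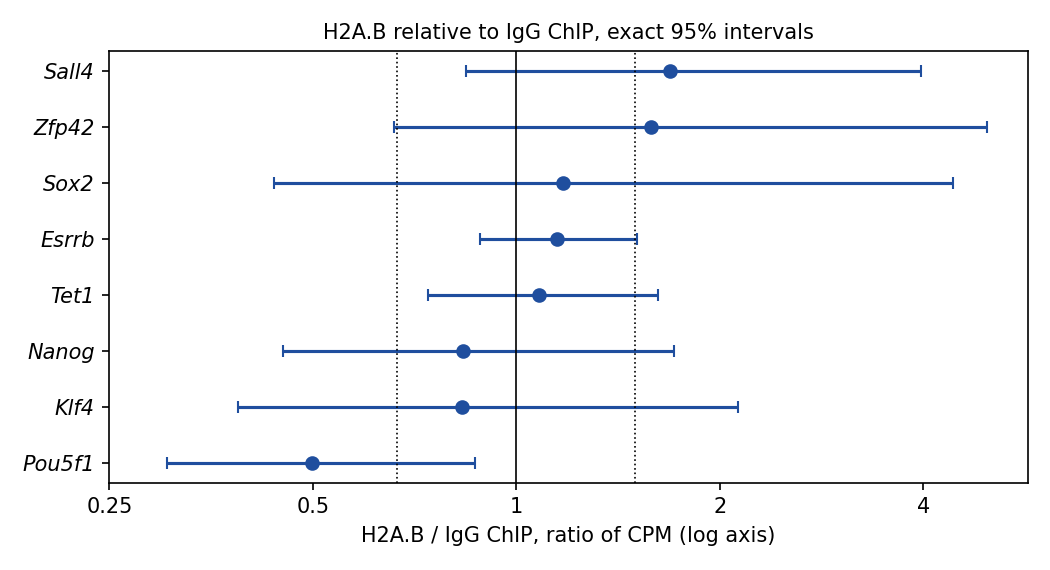
Ratio of H2A.B to IgG ChIP (ratio of CPM, log axis) at each locus with its exact 95% interval, the solid line at 1 and dotted lines at a ratio of 1.5 and its inverse. Pou5f1, at 0.499, is the only locus whose interval excludes 1, and Sall4 has the highest ratio at 1.69.

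The 5mC level spread more widely over the loci than the H2A.B level. Sox2 held the least, at 0.0319, 0.0470 and 0.166 CPM per kb in replicates 1, 2 and 3. All 3 values came from 1, 2 and 3 reads, and the mean of 0.0817 ± 0.0736 (SD, n = 3) exceeded only 0.836% of the 25 kb windows. Sox2 is also the member with the second highest number of promoter CG among those shown above. Klf4, with the most, had a mean 5mC level of 0.346, above 56.6% of the windows. IgG MeDIP had no read at Sox2, which allows up to 1.08 CPM per kb, so the low 5mC level was not told apart from background there.

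The other core factors differed from Sox2. At Pou5f1 the 5mC level was 0.318, 0.107 and 0.553 CPM per kb (mean 0.326 ± 0.223, SD, n = 3), near the genome's median of 0.315 for this mean. Replicate 2 was the lowest and replicate 3 the highest, and IgG MeDIP had no read, which allows up to 0.976. At Nanog the levels were 0.554, 0.973 and 0.688 (0.738 ± 0.214), a mean above 92.8% of the 25 kb windows. IgG MeDIP stood at 0.593 there, from 2 reads, and lay within the range of the 5mC libraries.

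Klf4 had 0.368, 0.229 and 0.442 CPM per kb of 5mC (0.346 ± 0.108, SD, n = 3), all below the 0.636 of IgG MeDIP, which came from 2 reads. Esrrb had 1.03, 0.632 and 0.503 (0.722 ± 0.275), and all lay above the 0.402 of IgG MeDIP from 9 reads, the largest control count of the 8 loci. Sall4 had 1.05, 0.746 and 0.511 (0.768 ± 0.269), above an IgG MeDIP level of 0.413. At both, replicate 1 was the highest and replicate 3 the lowest, and the means exceeded 92.3% and 93.7% of the windows. Zfp42 had the highest mean, from 1.3, 1.14 and 0.351 (0.915 ± 0.492), above 96.8% of the windows. It was not the highest with all reads as deposited (0.438, below Sall4 at 0.548, Nanog at 0.517 and Esrrb at 0.455), without replicate 1 (0.746, with Nanog at 0.830), or over the gene alone (0.311). Replicates 1 and 2 agreed closely at Zfp42 while replicate 3 was about the genome's median, and IgG MeDIP was at 0.252 from 1 read. Tet1 was the most even of the 8 relative to its mean, at 0.262, 0.321 and 0.404 (0.329 ± 0.0712), with IgG MeDIP at 0.0844 from 1 read.

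All 3 5mC libraries exceeded IgG MeDIP at 6 of the 8 loci (not at Nanog and Klf4). At 2 of these, Pou5f1 and Sox2, IgG MeDIP had 0 reads, so that any 5mC read exceeded it. Among the 25 kb windows of the genome 51.7% had all 3 above it, where the IgG MeDIP level rests on about 1 read. Over the 446 kb together the 5mC level was 0.728, 0.551 and 0.465 CPM per kb (0.582 ± 0.134, SD, n = 3) and that of IgG MeDIP was 0.307, from 17 reads. For a test, the 5mC libraries were thinned to the depth of IgG MeDIP, and log2(CPM + a pseudocount worth 0.5 reads) was fitted with limma over 25576 windows of 100 kb and the 8 loci. With Benjamini-Hochberg adjustment over these 25584 features, 0 of the 8 loci passed 0.05, in either direction, and 0.0% of all features did. The smallest adjusted p of limma among the loci was 0.569, at Tet1 (log2 difference 1.58, unadjusted p = 0.0214 by limma). Tet1 was the only locus with an unadjusted p under 0.05, beside 6.63% of all features higher and 0.543% lower at that limit. At Pou5f1 the difference of 1.58 (limma adjusted p = 0.646) came from 1 thinned read in each 5mC library against 0 of IgG MeDIP, so its size is set by the pseudocount. The others ran from -1.39 at Klf4 to 1.13 at Zfp42. Sox2 had no read in any thinned library and its difference of 0.00 carries no information. The median log2 difference was 0.51 over the 8 loci and 0.13 over the windows. On simulated data this test found 1.0% of 100 kb windows raised 4-fold and 68.0% of those raised 16-fold. Every locus but Esrrb is shorter than these windows, from 22.5 kb (Sox2) to 95.4 kb (Tet1), so the simulated shares do not carry over to them. Even a 16-fold difference may have been missed at the short loci.

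Read density was compared between the 2 kb around each start and the rest of the same loci, within each library. Reads and lengths were summed over the 8 loci before the ratio was taken. Each locus thus gave 2 kb to the starts, while Esrrb (180 kb) and Tet1 (95.4 kb) made up much of the rest of the 446 kb. Esrrb also had the highest H2A.B level. Differences in level between loci therefore enter these ratios, and a ratio matched by locus was not computed. H2A.B had 89 reads at the 8 starts and 2152 in the rest, a ratio of densities of 1.11 (95% interval 0.889 to 1.38). IgG ChIP had 1 read, at Zfp42, where the density of the rest predicts 5.24, a ratio of 0.191 (0.00479 to 1.08). The 5mC ratios were 0.982 (0.557 to 1.61), 0.530 (0.241 to 1.01) and 0.830 (0.266 to 1.98) in replicates 1, 2 and 3, with a mean of 0.781 ± 0.230 (SD, n = 3). With 2 kb around each start every interval held 1. No difference between starts and rest was thus shown for H2A.B or 5mC at this width beyond counting error. With 0.5 and 2.5 kb on either side the H2A.B ratio was 1.22 and 1.18, and whether these differ from 1 was not tested. The rest also takes in the profile bin with the most H2A.B reads, 38 from -1500 to -1000 bp. IgG MeDIP had 1 read at the starts, a ratio of 1.68 (0.0401 to 10.8). An exact permutation test of 3 5mC ratios against 1 cannot give a two-sided p below 0.25, so this comparison could not pass a threshold. Set against IgG ChIP at the starts alone, H2A.B had a ratio of CPM of 5.96 (1.04 to 238), which rests on that single IgG read. The ratios of start to rest in the 42 bp libraries were 1.11 (H2A.B) and 0.982 (5mC replicate 1). Those in the 50 bp libraries were 0.191 (IgG ChIP), 0.530 and 0.830 (5mC replicates 2 and 3) and 1.68 (IgG MeDIP). Both IgG ratios rest on 1 read at the starts, and the 50 bp libraries thus lay on both sides of the 42 bp libraries. The part of the flow cell in these differences was not tested.

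**Figure D3:**
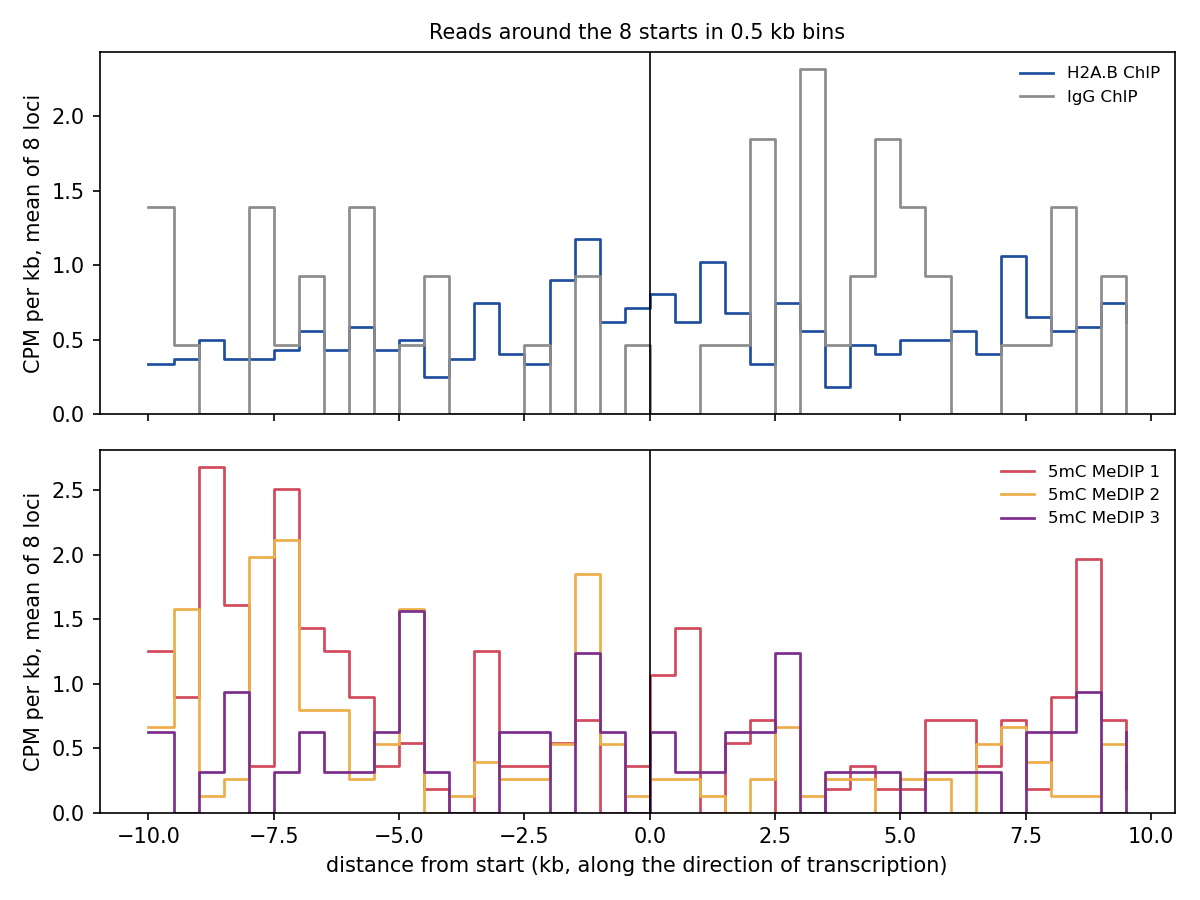
Distinct reads around the 8 starts in bins of 0.5 kb, as the mean level of the 8 loci (CPM per kb), ChIP libraries above and 5mC libraries below, with distance along the direction of transcription. H2A.B reaches its maximum of 1.18, from 38 reads, in the bin from 1.5 to 1.0 kb before the start. A Nanog tile with 22 H2A.B reads overlaps this bin, so the maximum does not stand for all 8 loci alike. IgG ChIP has 1 read within 1 kb of the starts.

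The 8 starts were not alike. Tet1 had 18 H2A.B reads within 1 kb of its start, above 98.1% of the 2 kb windows of the genome, and Sox2 had 14, above 94.0%. The other 6 had 8 (Sall4) to 11 (Klf4). Of the 16 and 9 5mC reads that replicates 1 and 2 had at the starts, 8 and 7 lay at Esrrb, above 98.4% and 97.5% of the 2 kb windows, and replicate 3 had none of its 5 there. IgG MeDIP had its 1 start read at Esrrb too. Pou5f1 had 3, 1 and 1 reads in the 3 libraries and Klf4, with the most promoter CG, 3, 0 and 1. Nanog had 0, 0 and 2, Sall4 1, 0 and 1, Sox2 1, 0 and 0, Tet1 0, 1 and 0, and Zfp42 none. Without Esrrb, a comparison added after its reads were seen, the 5mC ratios were 0.774, 0.145 and 1.01 (0.643 ± 0.447, SD, n = 3) and that of H2A.B was 1.27 (0.999 to 1.59). In replicate 2 the upper bound was then 0.530, below 1, while the other replicates' intervals held 1.

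A tile of 1 kb was called H2A.B-dense where it held at least 8 reads and at least 3 times the mean of the 25 tiles on each side. There were 4 such tiles among the 438 of the loci (0.913%), beside 1.08% of all tiles. Nanog held 2 of them, next to each other and before its start. The nearer, at chromosome 6, 122656001 to 122657000 (centre 1.0 kb before the start), had 22 H2A.B reads, 5.26 times its neighbours. As many H2A.B reads were found in 0.102% of all tiles. The farther, centred 2.0 kb before the start, had 13 reads and a ratio of 3.02. IgG ChIP had 1 read in the nearer tile and 0 in the farther. 5mC had 1, 8 and 1 reads in the nearer tile, which was also 1 of the 2 tiles of Nanog with 5mC in all 3 libraries, and 1, 4 and 0 in the farther.

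The other dense tiles lay at Klf4 and Esrrb. That of Klf4 (chromosome 4, 55544001 to 55545000) was centred 0.8 kb inside the gene and had 11 H2A.B reads, 3.02 times its neighbours, and no IgG ChIP read. That of Esrrb (chromosome 12, 87866001 to 87867000) lay past the 3′ end of the gene and had 17 H2A.B reads, 3.32 times its neighbours, with 1 IgG ChIP read. Of the 4 dense tiles 2 held an IgG ChIP read and all 4 a 5mC read in some library, and among all dense tiles of the genome 30.4% and 85.5% did. Those shares were 17.6% and 62.1% over all tiles. Pou5f1, Sox2, Zfp42, Tet1 and Sall4 had no dense tile. Their highest tiles held 9 reads (Sox2 and Zfp42), 10 (Pou5f1 and Tet1) and 14 (Sall4).

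A tile was counted as holding 5mC where each of the 3 libraries had at least 1 distinct read. There were 40 such tiles in the loci, 9.13% of 438, beside 4.98% of all tiles. Esrrb held 21 of its 179 tiles, and without this locus the share was 7.34%. Sall4 had 6 of 38, Tet1 7 of 94, Zfp42 3 of 31, Nanog 2 of 26 and Pou5f1 1 of 24. Klf4 and Sox2 had none, of 24 and 22. IgG MeDIP had a read in 2 of the 40 tiles (5.0%), where the share over all such tiles of the genome was 13.3%, and in 3.2% of all tiles of the loci, beside 3.61% of all tiles.

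The 5mC reads of Zfp42 lay mostly before the gene in replicates 1 and 2. The 10 kb before its start held 53, 51 and 4 reads in replicates 1, 2 and 3, or 3.79, 2.69 and 0.498 CPM per kb (2.33 ± 1.68, SD, n = 3). Replicates 1 and 2 exceeded 99.8% and 99.5% of the 10 kb windows of the genome, and replicate 3 exceeded 65.6%. IgG MeDIP had no read there, which allows up to 24.2 CPM over the whole 10 kb. Taken per kb, like the 5mC levels, this limit lies below replicates 1 and 2 and above replicate 3. H2A.B had 35 reads and IgG ChIP 2. The gene itself held 3, 10 and 3 5mC reads and the 10 kb after it 0, 8 and 2. Within the 10 kb, the part from 10 to 4 kb before the start (chromosome 8, 44396373 to 44402373), a range chosen after the reads were seen, held 51, 48 and 1. Replicates 1 and 2 had no read position in common there. In replicate 2, 47 of the 48 reads lay on the minus strand, while in replicate 1 31 of the 51 lay on the plus strand, as did 18 of the 21 H2A.B reads. Replicate 3, with 1 read, did not show the patch. The 5mC reads thinned out beyond the locus, with 16, 23 and 2 from 15 to 10 kb before the start. IgG MeDIP had 2 reads there. As 1 read is 8.05 CPM in IgG MeDIP and 0.528 to 1.24 CPM in the 5mC libraries, its level was above theirs in that part.

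**Figure D4:**
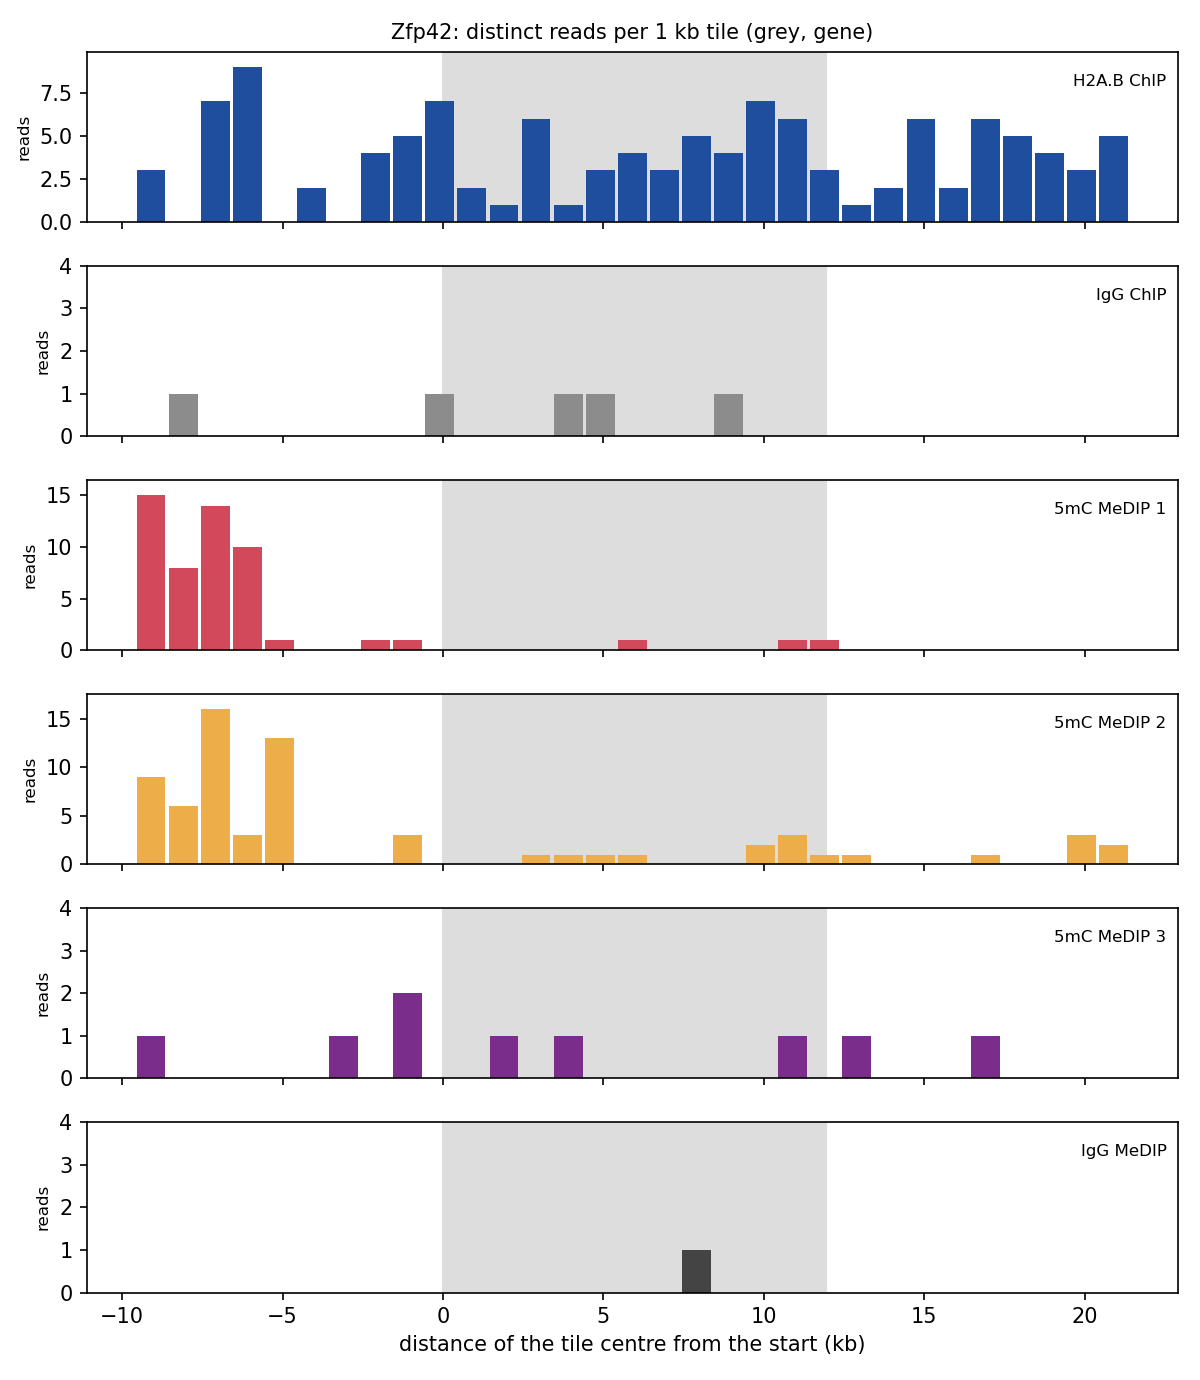
Distinct reads per 1 kb tile at the Zfp42 locus in each of the 6 libraries against the distance of the tile's centre from the start, with the gene shaded. 5mC replicates 1 and 2 hold most of their reads from 10 to 4 kb before the start (51 and 48), where replicate 3 has 1 and IgG MeDIP none.

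At Sall4 the 5mC reads collected at the other end of the gene. The 10 kb after it held 29, 33 and 9 reads in the 3 libraries, or 2.08, 1.74 and 1.12 CPM per kb (1.65 ± 0.485, SD, n = 3), above 98.7%, 98.5% and 98.2% of the 10 kb windows. Here all 3 libraries were high, and IgG MeDIP had 1 read, or 0.805 CPM per kb, above 71.2% of the windows. A single tile at chromosome 2, 168573001 to 168574000, takes in the 3′ end of the gene. It held 15, 22 and 2 distinct reads of 5mC and 1 of IgG MeDIP. In CPM per kb these were 10.7, 11.6 and 2.49 of 5mC and 8.05 of IgG MeDIP. The control level, from its single read, was thus near replicates 1 and 2 and above replicate 3. Only 0.0971% and 0.138% of all tiles held as many in replicates 1 and 2, while 4.25% did in replicate 3 and 3.61% in IgG MeDIP. In replicate 3 the 2 positions carried 24 of its deposited reads, so counting all reads would raise that library alone. H2A.B had 14 reads in the tile, the most of any tile of the locus, shared with the tile centred 11.3 kb after the start, and IgG ChIP none.

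**Figure D5:**
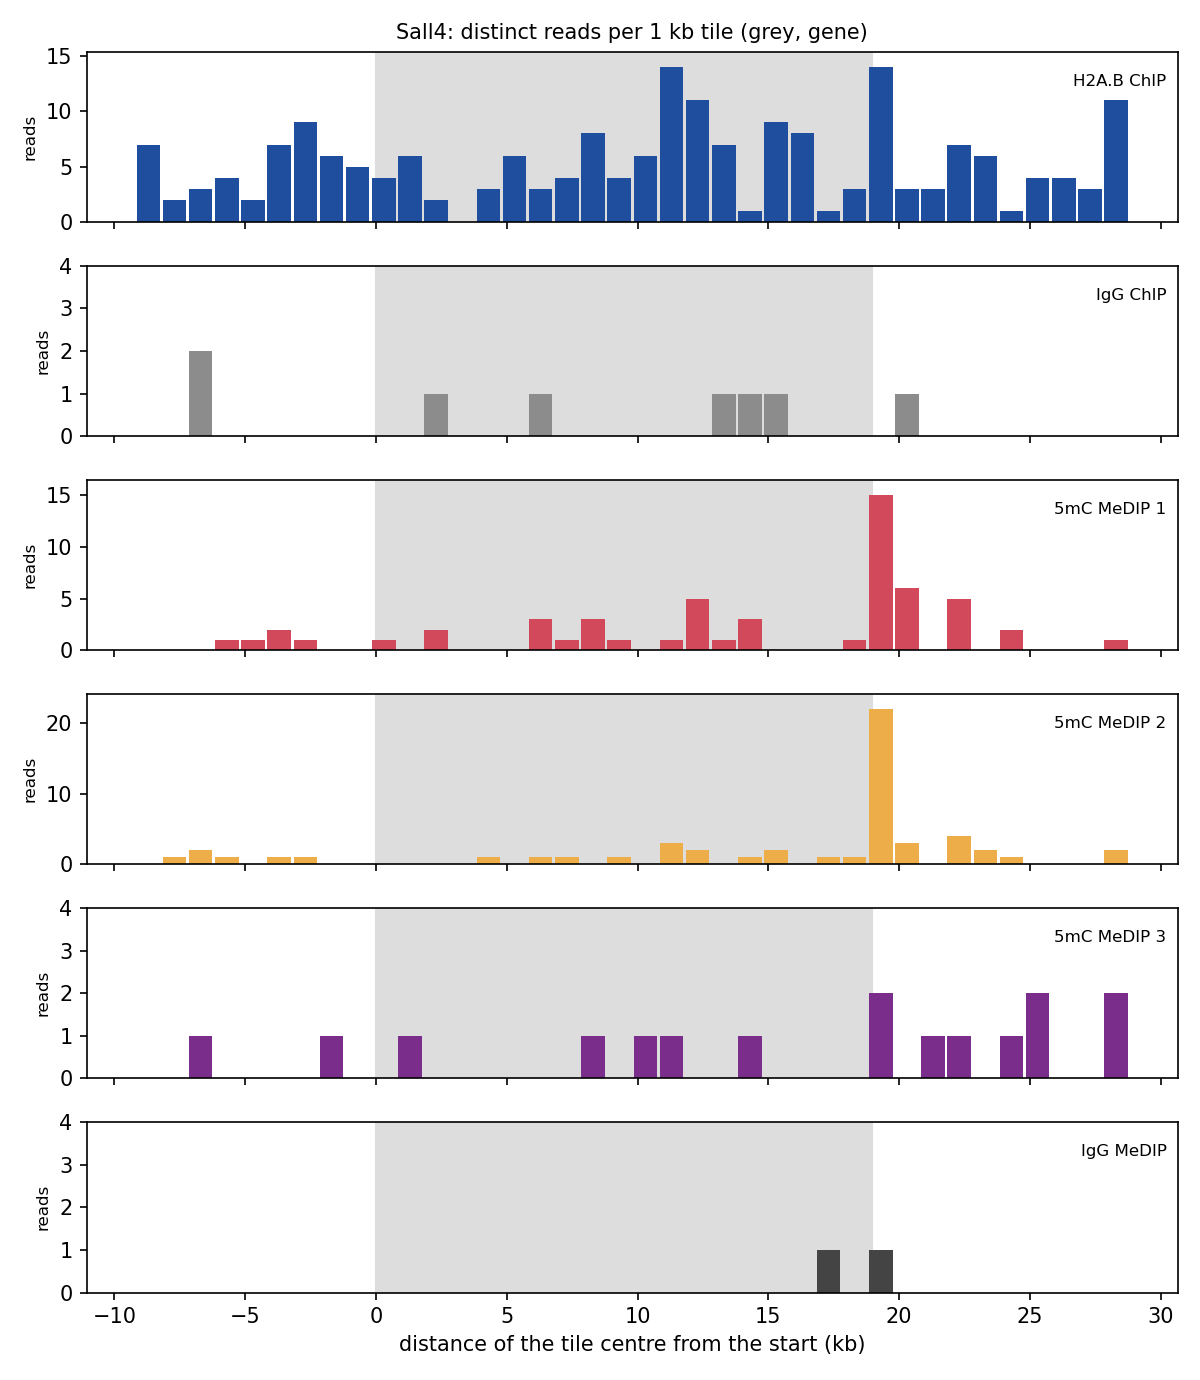
Distinct reads per 1 kb tile at the Sall4 locus in each of the 6 libraries against the distance of the tile's centre from the start, with the gene shaded. The tallest 5mC bars of replicates 1 and 2, 15 and 22 reads, stand at the 3′ end of the gene, 19.3 kb from the start. Replicate 3 has 2 reads there and IgG MeDIP 1, which is 8.05 CPM per kb in that shallow library.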

How the data were processed

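The authors deposited 1 list of aligned reads per library, with chromosome, start, end, read name, score and strand. The score as deposited is constant and was not used. Per the submitters' processing notes the tools were FastQC and Bowtie and the build mm9; alignment settings were not given in the sources used here.

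Lines that could not be read (1 of H2A.B, 8 of 5mC replicate 1) and 2979 reads of 5mC replicate 2 with a blank strand were dropped. The list of IgG MeDIP, 201263 reads, stood whole in the list of 5mC replicate 2 and was removed from it. Reads were counted once per position and strand on chromosomes 1 to 19, X and Y, since amplified libraries without molecular identifiers do not hold independent molecules; 39.9% (5mC replicate 1) to 86.9% (H2A.B) of the reads were distinct. Intervals are exact (Clopper-Pearson, or Poisson for levels) and cover counting error only.

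Windows under 25% of the median level, or over 10 times it in a library, were left out (771 and 81 of 26428 windows of 100 kb). The 5mC libraries were thinned at random (seed 20) before limma 3.58.1 in R 4.3.3, with an intensity trend, and the single IgG MeDIP library was assumed to vary like the others. Other steps used Python 3.11.15 with scipy 1.17.1. On simulated data the H2A.B rule found 27.0% of 25 kb windows raised 2-fold and 94.0% raised 4-fold, and called 2.61% of unchanged ones. The rule for dense tiles found 72.0% of tiles raised 4-fold.

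The members, lists and rules were chosen with earlier results of these data known. All 8 members are named with their values, and tiles are named where a rule called them or where they were the highest of their locus. Starts are the 5′ ends of the intervals, with the strand from the RefSeq table and, for Sall4, from general knowledge. Other genes of the network were not analysed here, because no mm9 annotation was used.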

Additional observations from a re-analysis of the deposited data

How the results depend on the processing

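Counting all reads as deposited gave 1 locus called higher for H2A.B (Sall4, 2.23) and 0 lower (Pou5f1, 0.679). The share of all 25 kb windows called in that setting was not computed. Repeated reads are not independent, which the exact interval does not allow for, so this call cannot be weighed. Adding 25 kb also gave 0 lower (Pou5f1, 0.681). Scaled to the surrounding 5 Mb the ratio of Nanog moved from 0.834 to 1.41 that of Zfp42 from 1.58 to 2.02 and that of Sall4 from 1.69 to 1.26, and none of these was called. With no flank added, Nanog was at 1.41, and Sox2, with no IgG ChIP read, had no ratio. The H2A.B-dense tiles were 22 at a threshold of 2 times the neighbours, 5.02% of the tiles of the loci beside 3.14% of all tiles. The share of the loci was then above that of all tiles, unlike in the main setting. At 5 times there was 1 dense tile, 0.228% beside 0.211%. The list of replicate 2 is made up of 4 sorted blocks. With only the first of them, 24 tiles had 5mC in every library used, 5.48% of the tiles of the loci beside 3.51% of all tiles. Such tiles were 66 to 117 when a replicate was left out, as only 2 libraries then had to hold a read. These were 15.1% to 26.7% of the tiles of the loci, beside 8.48% to 15.0% of all tiles. No locus passed the limma test of 5mC in any setting. The ratios of start to rest of H2A.B and of IgG ChIP stayed inside the intervals of the main setting, and the 5mC mean stayed within its SD. With 0.5 and 2.5 kb on either side of the starts the H2A.B ratio was 1.22 and 1.18. Intervals were not computed at these widths, so whether they hold 1 is not known. Without Esrrb the ratio of 5mC replicate 2 alone moved from 0.530 to 0.145, outside its interval. With all reads the mean 5mC level was lower at all 8 loci, at 0.438 CPM per kb for Zfp42, 0.0407 for Sox2, 0.199 for Pou5f1, 0.455 for Esrrb, 0.517 for Nanog, 0.192 for Klf4, 0.198 for Tet1 and 0.548 for Sall4. With 25 kb added Sox2 was at 0.241. The gene alone held 0.311 at Zfp42, 0.458 at Klf4 and 0.266 at Sox2. The cause of these shifts was not tested beyond what the settings themselves change. No paired analysis was possible because each IgG group is 1 library and the labels number only the 5mC libraries. Depth limits the loci most in the controls, with 0 to 9 reads of IgG MeDIP and 4 to 60 of IgG ChIP.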

Other observations

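The strand of neighbouring reads differed between libraries. Among distinct reads less than 100 bp apart across the genome, 54.9% of neighbouring pairs lay on the same strand in H2A.B ChIP and 78.2% in IgG ChIP. The shares were 72.5%, 89.8% and 81.4% in 5mC replicates 1, 2 and 3 and 90.4% in IgG MeDIP, where strands drawn independently would give 50.2% to 51.4%. At 300 to 1000 bp apart they were 50.6% in H2A.B ChIP, 51.7% in IgG ChIP, 52.3% to 52.6% in 5mC and 58.2% in IgG MeDIP. The patch before Zfp42, with 47 of 48 reads of replicate 2 on the minus strand, belongs to the library with the highest share among the 5mC libraries. Counted as deposited, without removing repeated positions, replicate 2 had 50 reads in the patch, of which 27, 21, 0 and 2 stood in the 4 sorted blocks of its list.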
